A study of Homo sapiens with 14 samples.

Results

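The genes described here are the replication-dependent H2A and H2B genes H2AC4, H2AC8, H2AC12, H2AC15, H2AC16, H2AC20, H2AC21, H2BC4 and H2BC5, chosen by name from 12425 listed genes, of which 12411 are nuclear. All 9 were found in the table, 7 in the large histone cluster at 6p22 on chromosome 6 and 2 in the small cluster at 1q21 on chromosome 1. RNA polymerase II (RNAPII) had been measured over gene spans by chromatin immunoprecipitation and sequencing in BJ hTERT cells, human foreskin fibroblasts immortalised with telomerase, in a study of how inhibition of the kinase ATR affects transcription in S phase. An antibody to phosphorylated serine 2 of the RNAPII C-terminal repeats (Ser2), a mark of elongating polymerase, was used. So was an antibody to the N-terminal part of the subunit Rpb1 (total RNAPII). Each gave 1 library at each of 16, 19 and 22 h from cells given an ATR inhibitor (ATRi). Each also gave 1 library at each of these hours from cells given the vehicle DMSO, and 1 library at 14 h. The labels of the 14 h libraries name no treatment, and the deposited headers call them CTR. All 14 libraries came from this single cell line, every group held 1 library, and the sources used here do not give the inhibitor's name, its dose, the event from which the hours count or any synchronisation.

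Replication-dependent histone genes supply the core histones that package newly made DNA, and their transcription is coupled to S phase through NPAT, a substrate of cyclin E and CDK2 that gathers at the clusters in histone locus bodies. Most of these genes lack introns, and their transcripts end in a stem-loop that is bound by SLBP in place of a poly(A) tail. H2A and H2B proteins pair as dimers on the nucleosome, and the many gene copies encode nearly the same 2 proteins, so short reads from different copies can be hard to tell apart. ATR is the kinase that answers stalled replication forks and restrains origin firing.

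Sequence from the clusters shows what the genes share before any measurement. RefSeq windows for GRCh38.p14, cut to the 250 bases before the annotated start, were found for 8 of the 9 genes, all but H2AC12. The 2 genes of 1q21 are shown with 2 genes of 6p22, since the clusters are set side by side in the results that follow. H2AC4 lies at chr6:26033619-26033868, minus strand, H2BC4 at chr6:26123927-26124176, minus strand, H2AC20 at chr1:149886668-149886917, plus strand, and H2AC21 at chr1:149887966-149888215, minus strand. Capitals mark, on either strand, the octamer ATTTGCAT or its complement, CCAAT or its complement, and TATAA or its complement.
H2AC4: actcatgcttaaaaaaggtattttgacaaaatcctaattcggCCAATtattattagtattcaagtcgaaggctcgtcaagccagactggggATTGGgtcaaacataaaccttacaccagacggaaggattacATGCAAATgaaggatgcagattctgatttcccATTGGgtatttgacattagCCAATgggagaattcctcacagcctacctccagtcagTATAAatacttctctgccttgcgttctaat
H2BC4: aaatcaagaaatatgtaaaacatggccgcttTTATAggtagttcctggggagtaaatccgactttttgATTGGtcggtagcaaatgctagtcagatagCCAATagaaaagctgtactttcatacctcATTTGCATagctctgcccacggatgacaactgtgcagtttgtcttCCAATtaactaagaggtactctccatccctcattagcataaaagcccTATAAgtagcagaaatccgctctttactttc
H2AC20: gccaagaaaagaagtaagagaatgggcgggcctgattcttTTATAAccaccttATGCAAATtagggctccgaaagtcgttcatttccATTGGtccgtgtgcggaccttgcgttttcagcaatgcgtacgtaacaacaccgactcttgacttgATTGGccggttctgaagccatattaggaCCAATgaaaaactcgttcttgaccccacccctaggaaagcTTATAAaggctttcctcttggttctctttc
H2AC21: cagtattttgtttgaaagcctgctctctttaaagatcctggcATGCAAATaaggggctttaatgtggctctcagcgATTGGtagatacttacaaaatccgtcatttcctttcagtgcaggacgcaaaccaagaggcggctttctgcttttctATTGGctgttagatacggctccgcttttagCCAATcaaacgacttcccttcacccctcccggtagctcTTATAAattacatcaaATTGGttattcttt
CCAAT, a box shared by many promoters, was present at least once in all 8 windows, against 32% of the 35116 RefSeq windows of this length. TATAA was also in all 8, against 18.9% of all windows, and each of the 8 had a copy on the sense strand whose first base lay at -32 to -28, counting the base before the start as -1. The octamer, the recognition element of the factor encoded by POU2F1, was in 6 of the 8 and not in those of H2AC15 and H2BC5, against 1.63% of all windows. TATAA and its complement overlapped in the windows of H2AC20 and H2AC21, and no other motifs overlapped in the 8 windows. These matches are letters in a window and were not tested as sites of binding.

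The deposited values are reads per 1000000 library reads (RPM) over each gene's whole span, not divided by length. The 7 H2A genes span 387 to 509 bp, while H2BC4 spans 9054 bp and H2BC5 13204 bp in this annotation. Several spans stand close together. H2AC20 and H2AC21 end tail to tail with 159 bp between them, H2BC4 lies 218 bp from the span that holds H2AC6, H2AC8 lies 282 bp from the span that holds H2BC8, and H2AC15 and H2AC16 lie wholly inside a listed span of 28039 bp (ENSG00000233822). Sonicated fragments can reach across such gaps, so the RPM of neighbours are not independent measurements.

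The libraries held 17181179 to 62368915 reads, and a single member held between 73 reads (H2AC16, Ser2 at 14 h) and 2198 reads (H2BC4, total RNAPII with ATRi at 19 h). The share of a library's reads inside the listed nuclear genes ranged from 42.8% to 72.0% in total RNAPII and from 35.8% to 65.6% in Ser2, with the highest values at 19 h in both. A scale that sets each library's median gene to 0 is therefore given beside the deposited one. Of the fibroblast markers looked up, 9 of 9 were listed, among them COL1A1 at 109 to 301 RPM. KRT14 (0.236 to 1.18 RPM), 1 of 4 keratinocyte markers, and VWF (15.2 to 50.5 RPM over a long span), 1 of 4 endothelial markers, were listed, and 0 of 4 blood cell markers.

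Per kilobase, RNAPII was dense over the short H2A genes. Averaged over the 14 libraries, H2AC20 carried 54.0 RPM per kb, H2AC21 41.3, H2AC12 39.7, H2AC8 32.8, H2AC16 32.0, H2AC4 30.6 and H2AC15 28.0, against 0.745 for the median of 12000 genes that averaged 1 RPM or more. These 7 densities lay above 99.55% (H2AC15) to 99.83% (H2AC20) of those genes. The median listed nuclear gene spans 30115 bp, so these ranks set short spans beside much longer ones. Ranks among genes of like span were not taken. The 2 H2B genes, annotated with long spans, carried 3.07 RPM per kb (H2BC4) and 2.11 (H2BC5). The order of the H2A genes describes spans of nearly one length, and neighbours such as H2AC8 and H2AC16 lay closer together than their own range over the hours.

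H2AC4, the first of the 6p22 members along chromosome 6, showed the course of the hours most plainly. Ser2 over H2AC4 was 5.23 RPM at 14 h, 5.32 (ATRi) and 4.55 (DMSO) at 16 h, 17.6 (ATRi) and 18.8 (DMSO) at 19 h, and 8.74 (ATRi) and 8.43 (DMSO) at 22 h. Total RNAPII over H2AC4 was 5.70 RPM at 14 h, 11.9 (ATRi) and 11.4 (DMSO) at 16 h, 19.3 (ATRi) and 23.5 (DMSO) at 19 h, and 17.9 (ATRi) and 9.79 (DMSO) at 22 h. In Ser2 both 19 h libraries stood above the other 5, and in total RNAPII the ATRi library at 22 h stood close to the 19 h libraries while its DMSO partner did not.

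H2BC4 and H2BC5, the 2 H2B genes, had the highest RPM of the members in most libraries, over their long spans. For H2BC4, Ser2 was 14.7 RPM at 14 h, 14.5 (ATRi) and 12.2 (DMSO) at 16 h, 41.9 (ATRi) and 38.8 (DMSO) at 19 h, and 18.4 (ATRi) and 16.1 (DMSO) at 22 h. For the same gene total RNAPII was 18.8 RPM at 14 h, 31.7 (ATRi) and 26.8 (DMSO) at 16 h, 47.2 (ATRi) and 51.1 (DMSO) at 19 h, and 38.0 (ATRi) and 18.9 (DMSO) at 22 h. For H2BC5, Ser2 was 14.0 RPM at 14 h, 15.6 (ATRi) and 13.2 (DMSO) at 16 h, 39.9 (ATRi) and 38.4 (DMSO) at 19 h, and 20.5 (ATRi) and 18.8 (DMSO) at 22 h. Both genes had their highest Ser2 values in the 2 libraries of 19 h, and no library of another hour overlapped them. For H2BC5, total RNAPII was 17.4 RPM at 14 h, 33.8 (ATRi) and 26.7 (DMSO) at 16 h, 44.8 (ATRi) and 48.6 (DMSO) at 19 h, and 36.2 (ATRi) and 21.3 (DMSO) at 22 h, with the ATRi library at 22 h between the 16 h and 19 h libraries.

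H2AC8, H2AC12, H2AC15 and H2AC16, the other H2A genes of 6p22, followed the same order in Ser2. H2AC8 had Ser2 values of 6.50 RPM at 14 h, 8.65 (ATRi) and 6.01 (DMSO) at 16 h, 24.1 (ATRi) and 23.9 (DMSO) at 19 h, and 11.8 (ATRi) and 11.6 (DMSO) at 22 h. H2AC12 had Ser2 values of 8.32 RPM at 14 h, 8.80 (ATRi) and 6.66 (DMSO) at 16 h, 21.2 (ATRi) and 21.1 (DMSO) at 19 h, and 9.97 (ATRi) and 9.63 (DMSO) at 22 h. Both showed 19 h libraries well above all others. H2AC15 had Ser2 values of 5.40 RPM at 14 h, 4.81 (ATRi) and 3.92 (DMSO) at 16 h, 15.6 (ATRi) and 14.9 (DMSO) at 19 h, and 7.74 (ATRi) and 6.42 (DMSO) at 22 h. H2AC16 had Ser2 values of 4.02 RPM at 14 h, 5.94 (ATRi) and 4.86 (DMSO) at 16 h, 17.8 (ATRi) and 19.0 (DMSO) at 19 h, and 9.59 (ATRi) and 8.98 (DMSO) at 22 h. For each of these 4 genes the 22 h libraries lay between those of 16 h and 19 h, without overlap with either.

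The total RNAPII values of these 4 genes were less ordered by hour. H2AC8 had total RNAPII values of 9.55 RPM at 14 h, 20.4 (ATRi) and 15.4 (DMSO) at 16 h, 24.5 (ATRi) and 29.5 (DMSO) at 19 h, and 26.4 (ATRi) and 15.3 (DMSO) at 22 h. H2AC12 had total RNAPII values of 11.8 RPM at 14 h, 20.1 (ATRi) and 16.2 (DMSO) at 16 h, 20.1 (ATRi) and 24.5 (DMSO) at 19 h, and 22.9 (ATRi) and 13.5 (DMSO) at 22 h. In both, the ATRi library at 22 h exceeded the ATRi library at 19 h. H2AC15 had total RNAPII values of 7.51 RPM at 14 h, 12.1 (ATRi) and 11.1 (DMSO) at 16 h, 17.5 (ATRi) and 21.3 (DMSO) at 19 h, and 16.7 (ATRi) and 8.73 (DMSO) at 22 h. H2AC16 had total RNAPII values of 6.52 RPM at 14 h, 13.2 (ATRi) and 12.7 (DMSO) at 16 h, 19.3 (ATRi) and 23.1 (DMSO) at 19 h, and 19.9 (ATRi) and 11.2 (DMSO) at 22 h. In the DMSO libraries all 4 genes peaked at 19 h, and in the ATRi libraries H2AC15 alone of the 4 did.

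H2AC20 and H2AC21 are the H2A genes of 1q21, 2 neighbours whose 3′ ends face each other. Ser2 over H2AC20 was 12.7 RPM at 14 h, 14.1 (ATRi) and 9.80 (DMSO) at 16 h, 25.2 (ATRi) and 26.7 (DMSO) at 19 h, and 14.5 (ATRi) and 17.3 (DMSO) at 22 h. Total RNAPII over H2AC20 was 17.5 RPM at 14 h, 28.5 (ATRi) and 23.4 (DMSO) at 16 h, 22.4 (ATRi) and 27.7 (DMSO) at 19 h, and 33.4 (ATRi) and 21.9 (DMSO) at 22 h. The highest total RNAPII value of this gene was in the ATRi library of 22 h and its lowest ATRi value was at 19 h, whereas H2AC4 had its highest ATRi value at 19 h. Ser2 over H2AC21 was 8.37 RPM at 14 h, 9.67 (ATRi) and 6.45 (DMSO) at 16 h, 20.4 (ATRi) and 20.3 (DMSO) at 19 h, and 12.1 (ATRi) and 12.1 (DMSO) at 22 h. Total RNAPII over H2AC21 was 11.5 RPM at 14 h, 20.1 (ATRi) and 15.4 (DMSO) at 16 h, 21.3 (ATRi) and 25.9 (DMSO) at 19 h, and 27.3 (ATRi) and 16.2 (DMSO) at 22 h. Ser2 over both genes was highest at 19 h, whereas total RNAPII over both was highest with ATRi at 22 h. Counted over all members, 9 of 9 had both 19 h libraries of Ser2 above all 4 libraries of 16 h and 22 h, as did 87.3% of 12000 genes, and 4 of 9 (H2AC4, H2BC4, H2BC5 and H2AC15) had this order in total RNAPII, as did 80.9%. Relative to the median gene, the 7 genes of 6p22 and neither of 1q21 had this order without overlap in Ser2, against 39% of all genes. Within each treatment taken alone, H2AC21 also peaked at 19 h on this scale, and H2AC20 did not.

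**Figure D1:**
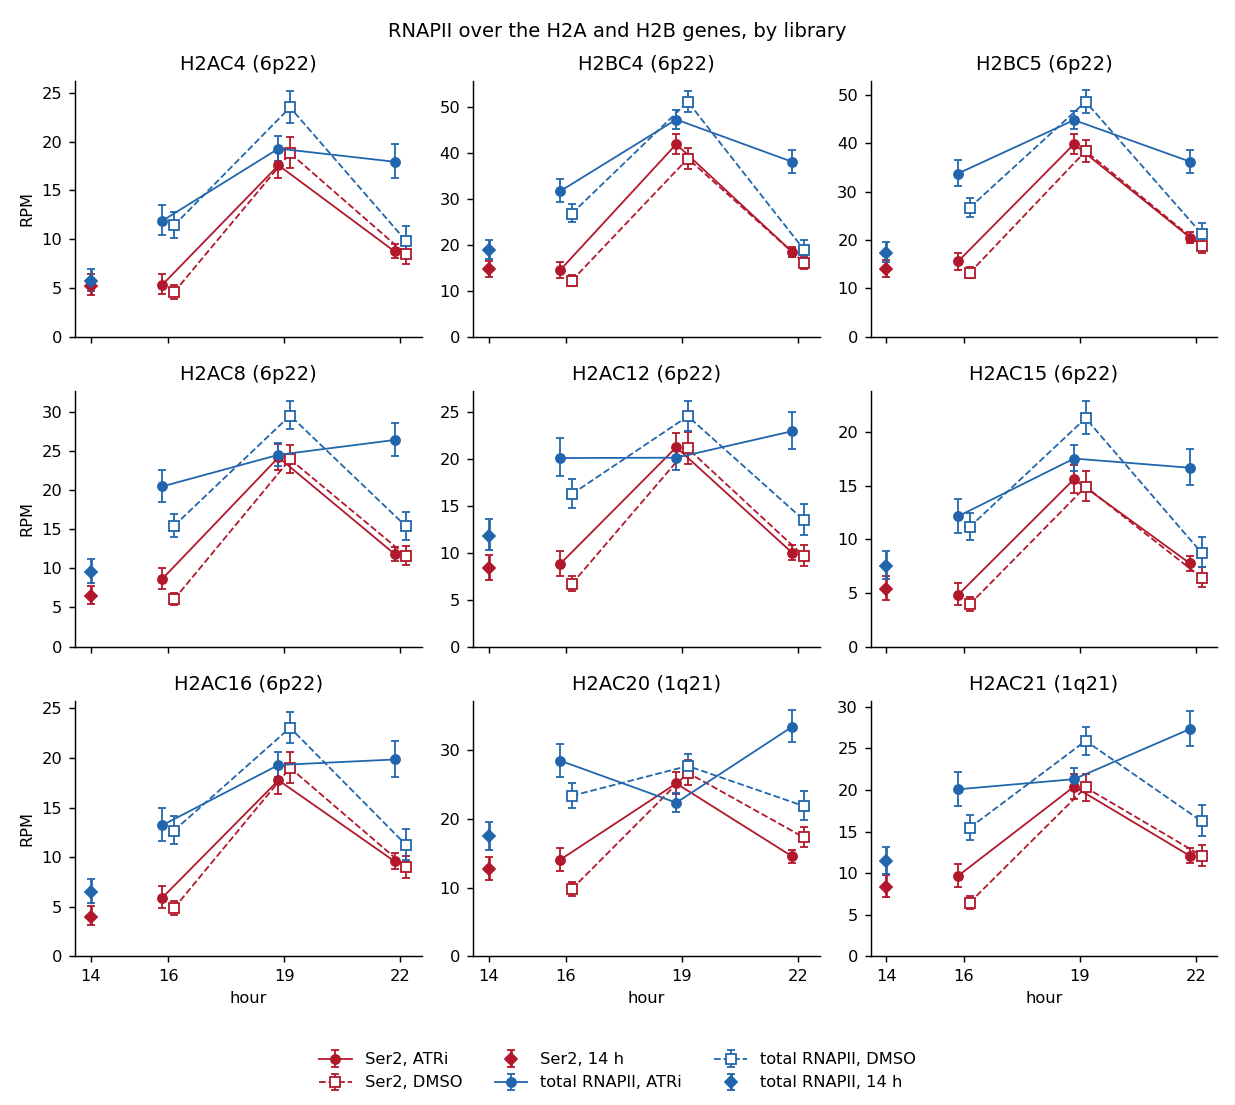
RPM (y axis from 0) over each of the 9 H2A and H2B genes by hour (x axis), 1 library per point, with 95% exact Poisson intervals that cover counting error only; red is Ser2, blue total RNAPII, filled circles ATRi, open squares DMSO and diamonds the 14 h libraries. Ser2 peaked at 19 h over every gene with both treatments, while total RNAPII with ATRi over H2AC20 and H2AC21 was highest at 22 h.

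The first question was how elongating RNAPII over these genes differed between hours, with the ATRi and DMSO libraries of an hour standing in for replicates. P-values here measure only the spread between single libraries. RPM are relative to each library, so cells in S phase, RNAPII per cell and the yield of the immunoprecipitation cannot be told apart. At 19 h against 16 h, Ser2 rose over all 9 genes (limma, treatment as a term, adjusted p at most 2.33e-07), with a median log2 change of 1.57. On the deposited scale 85.9% of all 11989 genes tested also rose, so the count of 9 of 9 is near the background. The median log2 change was 0.90 for all genes and 1.13 for 115 other genes under 1000 bp not named as histone genes. The changes were 1.78 ± 0.12 for H2AC4 (log2, SE from limma), 1.70 ± 0.12 for H2AC15, 1.68 ± 0.12 for H2AC16, 1.67 ± 0.12 for H2AC8, 1.57 ± 0.10 for H2BC4, 1.42 ± 0.10 for H2BC5, 1.41 ± 0.12 for H2AC12, 1.31 ± 0.13 for H2AC21 and 1.11 ± 0.13 for H2AC20. H2AC4 stood above 98.0% of all genes in this change and H2AC20 above 66.9%.

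With every library centred on its median gene, Ser2 at 19 h was still called higher than at 16 h over 8 of the 9 genes, against 35.4% of all genes. The median centred change of the 9 was 0.71. H2AC20 was the gene not called (0.26 ± 0.13, adjusted p = 0.0799). All 9 centred values lay above 0, as did 53.3% of all genes.

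From 19 h to 22 h the direction turned. Ser2 fell over all 9 genes on the deposited scale (limma, adjusted p at most 9.26e-05), where 84.3% of all genes fell. The median log2 change was -1.01 for the 9, -0.68 for all genes and -0.79 for the 115 other genes under 1000 bp. H2BC4 fell by 1.20 ± 0.10 on the log2 scale and stood below all but 2.85% of genes, while H2AC20 fell by 0.69 ± 0.13 and H2AC21 by 0.73 ± 0.13. After centring, all 7 genes of 6p22 and neither gene of 1q21 were called lower, against 27.7% of all genes. The centred changes were -0.32 to -0.57 in 6p22, -0.10 for H2AC21 (adjusted p = 0.518) and -0.06 for H2AC20 (adjusted p = 0.711).

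Ser2 at 22 h stood between the other hours. Over all 9 genes it was higher at 22 h than at 16 h (limma, adjusted p at most 0.0272), against 39% of all genes, with changes from 0.34 ± 0.12 (H2AC12) to 0.74 ± 0.12 (H2AC4) on the log2 scale and a median of 0.58, against 0.21 for the median gene. The 115 other genes under 1000 bp had a median of 0.28. In all 9 genes both 22 h libraries lay above both 16 h libraries, an order that 59.4% of all genes showed. After centring, 5 of the 9 (H2AC4, H2AC8, H2AC15, H2AC16 and H2AC21) were called higher, against 10.2% of all genes.

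Total RNAPII moved less evenly. At 19 h against 16 h it rose over H2AC4 (0.84 ± 0.29, log2), H2BC4 (0.75 ± 0.26), H2AC15 (0.71 ± 0.29) and H2BC5 (0.63 ± 0.25), with limma adjusted p of 0.0240, 0.0243, 0.0485 and 0.0427. With a pseudocount of 0.1 the limma adjusted p of H2AC15 was 0.0509. The 4 called on the deposited scale are 4 of the 9 genes, all of 6p22, and 39.8% of 12031 genes tested rose. The other changes were 0.68 ± 0.29 for H2AC16 (adjusted p = 0.0518), 0.58 ± 0.28 for H2AC8, 0.41 ± 0.28 for H2AC21, 0.29 ± 0.28 for H2AC12 and -0.05 ± 0.26 for H2AC20, none past the threshold of 0.05. After centring 0 of the 9 were called higher, against 3.75% of all genes, and 0 also by edgeR and DESeq2. The one member past an unadjusted p of 0.05 after centring was H2AC20, on the lower side (-0.53 ± 0.15, adjusted p = 0.0646).

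At 22 h against 19 h total RNAPII fell over H2BC4 (-0.86 ± 0.26), H2BC5 (-0.74 ± 0.25) and H2AC4 (-0.66 ± 0.29), with limma adjusted p of 0.00946, 0.0163 and 0.0483. The values of H2AC15 (-0.66 ± 0.29, adjusted p = 0.0518), H2AC16 (-0.48 ± 0.29), H2AC8 (-0.41 ± 0.28), H2AC12 (-0.33 ± 0.28) and H2AC21 (-0.15 ± 0.28) did not pass. The background on this scale was 56.6% of genes lower, so 3 of 9 is below it. H2AC20 had a positive value of 0.12 ± 0.26 on the deposited scale, the only one of the 9, and relative to the median gene it rose by 0.68 ± 0.15 (adjusted p = 0.0386), where 5.83% of all genes rose. Centring turned the values of H2AC8, H2AC12, H2AC16 and H2AC21 positive as well, none of them called. No member, and no gene in the table, was called between 22 h and 16 h in total RNAPII by limma (adjusted p under 0.05), with 0 of the 9 and, of all genes, 72 higher and 283 lower past an unadjusted p of 0.05. Neither edgeR nor DESeq2 called a member there, although DESeq2 called 24 genes of the whole table higher and 26 lower.

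**Figure D2:**
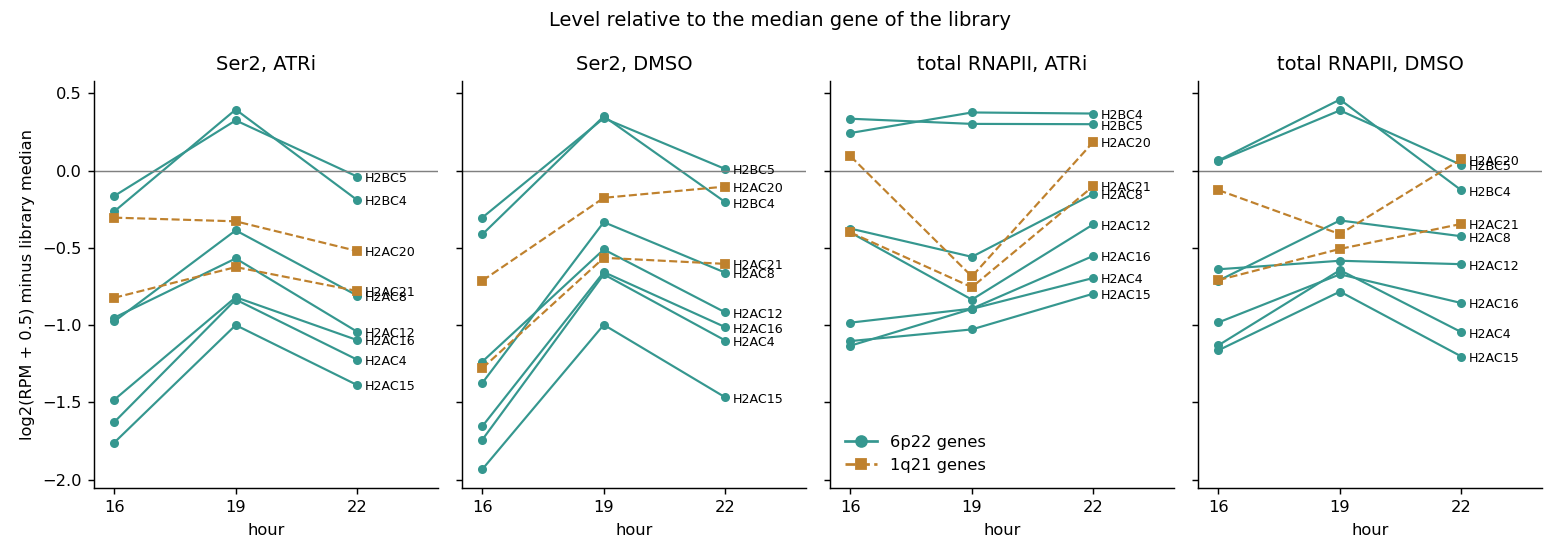
Log2(RPM + 0.5) of each gene minus the median of 12000 genes in the same library (y axis, log2 units; 0 is the median gene) at 16, 19 and 22 h (x axis), 1 library per point, with genes of 6p22 as solid lines and of 1q21 as dashed lines. The 6p22 genes peaked at 19 h in both Ser2 panels, whereas H2AC20 dipped at 19 h in both total RNAPII panels.

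Set side by side on the deposited scale, the mean changes between neighbouring hours lay farther from 0 in 6p22 than in 1q21, in both antibodies. From 16 h to 19 h the mean log2 change was 1.60 in 6p22 and 1.21 in 1q21 for Ser2, and 0.64 in 6p22 and 0.18 in 1q21 for total RNAPII. From 19 h to 22 h it was -1.04 in 6p22 and -0.71 in 1q21 for Ser2, and -0.59 in 6p22 and -0.02 in 1q21 for total RNAPII. After centring, total RNAPII had median changes of 0.20 in 6p22 and -0.30 in 1q21 from 16 h to 19 h, and of -0.093 in 6p22 and 0.54 in 1q21 from 19 h to 22 h, so there the 1q21 values lay farther from 0. On the deposited scale the differences of 6p22 minus 1q21 had the same sign in both treatments. For the 16 h to 19 h change they were 0.53 (ATRi) and 0.26 (DMSO) in Ser2 and 0.55 (ATRi) and 0.38 (DMSO) in total RNAPII. For the 19 h to 22 h change they were -0.24 (ATRi) and -0.43 (DMSO) in Ser2 and -0.53 (ATRi) and -0.62 (DMSO) in total RNAPII. Between 22 h and 16 h the sign differed between treatments, with 0.29 (ATRi) and -0.17 (DMSO) in Ser2.

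With 2 library pairs per antibody and 2 neighbouring genes in 1q21, these cluster differences were given no p-value. They describe the members alone and not each cluster as a whole. On the centred scale, in which the mean of the antibody is removed, H2AC20 correlated at a Pearson r of 0.40 with the mean of the other 8 genes over the 14 libraries. For the remaining 8 genes this r was 0.81 (H2BC4) to 0.98 (H2AC8), and H2AC21, the neighbour of H2AC20, had 0.84. H2AC20 and H2AC21 correlated with each other at 0.77, and H2AC21 correlated with the mean of the 6p22 genes at 0.79. These values describe libraries that share hours and depth.

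The second question was how ATRi differed from DMSO. In total RNAPII all 9 genes had higher RPM with ATRi at 16 h, lower RPM at 19 h and higher RPM at 22 h, an order that 42% of all 12000 genes showed. At 22 h the ATRi to DMSO log2 ratio ranged from 0.60 (H2AC20) to 0.99 (H2BC4), against 0.50 for the median gene. The members' median of 0.76 stood beside 0.76 for 118 other genes under 1000 bp not named as histone genes. On the linear scale, with the 0.5 RPM added before the logarithm, H2BC4 was 1.98 times as high with ATRi and H2AC20 1.52 times. All 9 ratios lay above 0 at 22 h, as did 88.9% of all genes. The 95% counting interval excluded 0 for each of the 9 genes at this hour. Counting intervals were taken for the 9 genes alone, so they have no background share. Relative to the median gene, 7 of the 9 kept the order over the 3 hours (not H2AC4 and H2AC16), against 22.1% of all genes.

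At 19 h the ATRi values were the lower ones, and here the H2A genes lay at the edge of the distribution. Their total RNAPII log2 ratios were -0.25 (H2AC16), -0.26 (H2AC8), -0.27 (H2AC15), -0.28 (H2AC4, H2AC12 and H2AC21) and -0.30 (H2AC20), with 0.833% to 2.23% of all genes lower than them, and the median gene was at -0.03. H2BC4 and H2BC5, with their longer spans, were at -0.11 and -0.12. Among 118 other genes under 1000 bp not named as histone genes the median was -0.17, and among 14 other replication-dependent histone genes named in the table it was -0.29, with 0 of the 14 above 0. At 16 h the ratios were 0.06 (H2AC4 and H2AC16) to 0.40 (H2AC8), with counting intervals that excluded 0 for 6 of the 9 genes. All 9 ratios lay above 0 there, as did 63.4% of all genes.

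In Ser2 the ratios lay above 0 at 16 h, as in total RNAPII, and nearer to 0 than those of total RNAPII at 19 h and 22 h. At 16 h all 9 genes had higher Ser2 with ATRi, as did 65.6% of all genes and 85.6% of the 118 other short genes. The log2 ratios were 0.21 (H2AC4) to 0.55 (H2AC21) with a median of 0.27, against 0.06 for the median gene and 0.28 for the other short genes. At 19 h the ratios were -0.10 to 0.11, and at 22 h they were -0.24 (H2AC20) to 0.25 (H2AC15), against 0.16 for the median gene. H2AC20 had the lowest Ser2 ratio of the 9 at 22 h, with 2.08% of all genes lower, in the same hour at which its total RNAPII ratio was positive. The 1q21 genes had the higher ratios of the 9 at 16 h (0.50 for H2AC20 and 0.55 for H2AC21) and the lower ones at 22 h (-0.24 for H2AC20, and a value of H2AC21 that rounds to 0).

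Across the 3 hours, with the hour as a block, no gene of the table was called for ATRi in either antibody, so the background is 0% and 0 of the 9 were called. The members' fitted log2 changes were 0.19 (H2AC20) to 0.37 (H2BC4) in total RNAPII and 0.05 (H2AC4) to 0.19 (H2AC15) in Ser2, beside medians of 0.18 and 0.10 over all genes. All lay above 0, as did 88.7% of all genes in total RNAPII and 84.0% in Ser2. In total RNAPII the members' values depended on the 22 h pair. Without it the members' median was 0.0090, against 0.26 with all 3 hours, H2AC4 (-0.11), H2AC16 (-0.096), H2AC15 (-0.077) and H2AC20 (-0.011) lay below 0, and the median of all genes was 0.019. Without 19 h the members' median in total RNAPII was 0.52. In Ser2 the members' median was 0.019 without 16 h, against 0.14 with all 3 hours, and H2AC20 (-0.16), H2AC4 (-0.024) and H2AC16 (-0.0031) lay below 0. The count over the table also depended on the hours: limma called 846 genes higher and 0 lower for ATRi in Ser2 without 19 h, and 38 higher and 6 lower without 16 h, with 0 of the 9 called in either. At an unadjusted p of 0.05, limma passed 0 of the 9 in total RNAPII and H2BC4 alone in Ser2 (0.18 ± 0.08, adjusted p = 0.192), beside 204 genes higher and 0 lower in total RNAPII and 2630 higher and 25 lower in Ser2. No member was called by edgeR or DESeq2, and edgeR called 0 genes of the table in each antibody. DESeq2 called 0 genes in total RNAPII and, with 10924 genes left without an adjusted p, 16 genes lower in Ser2. The difference of the 2 antibodies in this change was not called for any gene either, with members at -0.19 to -0.05 and 0 of the 9 past an unadjusted p of 0.05. The members' median of this difference was -0.12 with all 3 hours and 0.18 without 22 h.

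**Figure D3:**
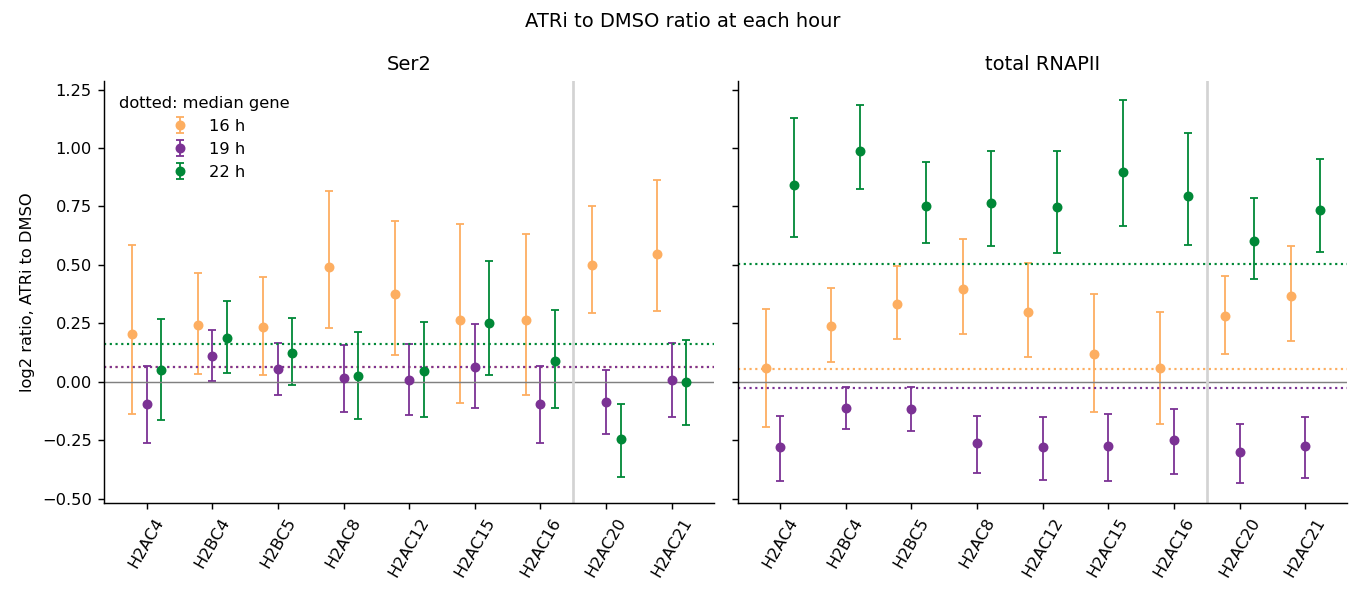
ATRi to DMSO log2 ratio (y axis, log2 units) for each gene (x axis, 6p22 left of the grey line and 1q21 right of it) at 16, 19 and 22 h, 1 library over 1 library per point, with 95% exact counting intervals and the median gene of each hour as a dotted line. In total RNAPII the 22 h points lay at 0.60 to 0.99 and the 19 h points at -0.30 to -0.11, while in Ser2 the 19 h and 22 h points lay about 0.

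At the first hours, total RNAPII over all 9 genes was higher in the 16 h DMSO library than in the 14 h library, by log2 ratios of 0.41 to 0.94, where 86.9% of all genes were higher. H2AC4 (0.94) and H2AC16 (0.91) had the largest ratios. Relative to the median gene the 9 stayed above 0, as did 47.2% of all genes. In Ser2, H2AC16 alone of the 9 was higher at 16 h (0.25), against 35% of all genes, and the others had ratios of -0.42 (H2AC15) to -0.08 (H2BC5). This pair compares 1 library with 1 library, and the 14 h libraries are called CTR in the deposited headers, with no treatment in their labels.

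The third question was how Ser2 compared with total RNAPII over these genes, each in RPM of its own library. Over the 7 pairs of libraries, Ser2 was lower than total RNAPII over all 9 genes (limma, pair as a block, adjusted p at most 0.00845), where 78.7% of all genes were lower. The log2 differences were -0.75 ± 0.15 for H2AC15, -0.69 ± 0.15 for H2AC8, -0.68 ± 0.14 for H2AC16, -0.66 ± 0.16 for H2AC12, -0.66 ± 0.14 for H2AC21, -0.63 ± 0.13 for H2BC4, -0.58 ± 0.15 for H2AC4, -0.58 ± 0.17 for H2AC20 and -0.55 ± 0.12 for H2BC5. Their median of -0.66 stood beside -0.36 for all genes and -0.56 for 118 other genes under 1000 bp not named as histone genes. Relative to the median gene, 7 of the 9 were called lower (all but H2AC4 and H2AC20), against 24.5% of all genes. The 2 antibodies are separate immunoprecipitations, so the size of this ratio has no absolute meaning.

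The ratio was not steady over the libraries. In each of the 7 pairs Ser2 was below total RNAPII over 7 of the 9 genes, as it was over 65.3% of all genes. In the 14 h pair the members' median was -0.44. At 16 h it was -1.09 with ATRi and -1.22 with DMSO, at 19 h -0.12 with ATRi and -0.31 with DMSO, and at 22 h -1.06 with ATRi and -0.33 with DMSO. The median gene had -0.60 with ATRi and -0.60 with DMSO at 16 h, -0.17 with ATRi and -0.27 with DMSO at 19 h, and -0.46 with ATRi and -0.13 with DMSO at 22 h. Relative to the median gene the members' median was at -0.50 (ATRi) and -0.62 (DMSO) at 16 h, at 0.05 (ATRi) and -0.04 (DMSO) at 19 h, and at -0.60 (ATRi) and -0.20 (DMSO) at 22 h. In the 19 h ATRi pair H2AC20 (0.17) and H2AC12 (0.08) had more Ser2 than total RNAPII in RPM, as did 15.8% of all genes and 8 of 14 other replication-dependent histone genes.

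**Figure D4:**
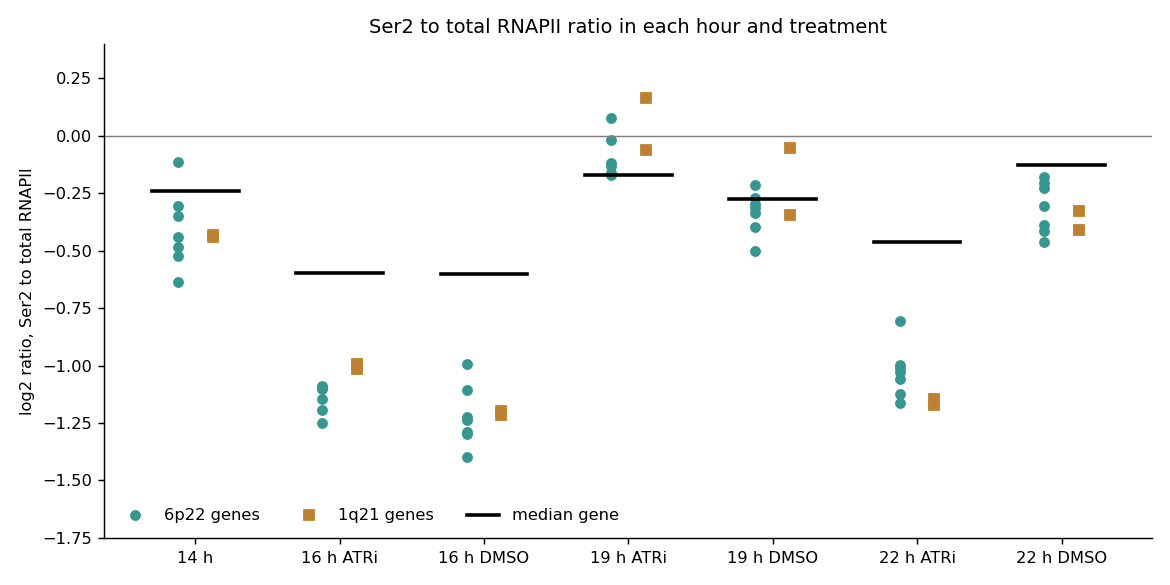
Ser2 to total RNAPII log2 ratio (y axis, log2 units) in each of the 7 pairs of libraries (x axis), 1 point per gene, with 6p22 genes as circles, 1q21 genes as squares and the median of 12000 genes as a bar. The points lay below the bar in both pairs of 16 h and in both pairs of 22 h, and on both sides of it at 19 h.

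Other histone genes and the factors that serve them were read beside the 9. Of 14 other replication-dependent histone genes named in the table, Ser2 rose over 14 at 19 h against 16 h (range 0.70 to 1.76) and fell over 14 at 22 h against 19 h (-1.09 to -0.60), where 85.9% of all genes rose and 84.3% fell. In total RNAPII 3 of the 14 rose and 0 fell at 19 h against 16 h, where 39.8% of all genes rose, and 0 rose and 1 fell at 22 h against 19 h, where 56.6% fell. Relative to the median gene, 11 of the 14 rose in Ser2 at 19 h, against 35.4% of all genes, and 4 of the 14 rose in total RNAPII at 22 h against 19 h, as H2AC20 did, against 5.83%. The centred total RNAPII medians of the 14 were -0.29 at 19 h against 16 h and 0.45 at 22 h against 19 h. These lay nearer to those of 1q21 (-0.30 and 0.54) than to those of 6p22 (0.20 and -0.093). The 14 were not split by cluster, so whether this course goes with the cluster was not tested.

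Of 24 genes for histone gene transcription and histone pre-mRNA processing, 23 were named in the table. In Ser2, 21 of these rose and 1 fell at 19 h against 16 h, and 1 rose and 22 fell at 22 h against 19 h, near the shares of 85.9% higher and 84.3% lower among all genes. The median change of the 23 at 19 h was 0.93, beside 0.90 for the median gene. SLBP, which binds the stem-loop, rose by 0.93 ± 0.10 (log2) in Ser2 at 19 h, and NPAT rose by 0.78 ± 0.09 and CASP8AP2, a histone locus body protein, by 0.76 ± 0.09. None of these 3 was called relative to the median gene at 19 h against 16 h, with centred values of 0.07 (SLBP), -0.07 (NPAT) and -0.09 (CASP8AP2). At 22 h against 19 h, centred Ser2 was called lower over SLBP (-0.33, limma adjusted p = 0.00462) and CASP8AP2 (-0.29, limma adjusted p = 0.00605). NPAT (-0.06) was not called there, and 27.7% of all genes were called lower. POU2F1, the octamer factor, went the other way. At 19 h against 16 h it was among 680 of 11989 genes called lower in Ser2 and 283 of 12031 in total RNAPII. Its centred changes there were -1.47 in Ser2 and -1.12 in total RNAPII. Whether its course bears on that of the members was not tested. Ser2 over POU2F1 fell by 0.61 ± 0.09 at 19 h against 16 h and rose by 0.51 ± 0.09 at 22 h against 19 h, and total RNAPII fell by 0.64 ± 0.22 and rose by 0.61 ± 0.22 (limma adjusted p of 0.0253 and 0.0222).

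Among 10463 named genes that are no histone genes, the 5 whose centred course over the 14 libraries was most like the mean of the 9 were NXF1, a messenger RNA export receptor, with a Pearson r of 0.976, VIM-AS1 (0.956), ATF4, a stress-response transcription factor (0.945), HMGN2, a nucleosome-binding protein (0.944), and DALRD3 (0.944). The measure removes the library's median gene and the mean of the antibody, and it was taken over 14 libraries that share hours.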

How the data were processed

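The deposited table gives, for each of 14 libraries, reads per 1000000 library reads (RPM) per gene as computed by the authors. The submitters' processing notes name Bowtie2 2.3.3.1, SAMtools 1.4 and the build hg38. How genes were counted and annotated, and what was done with duplicates, multiply mapped reads, input and any spike-in, is not given in the sources used here. The protocol text names antibodies to a phosphorylated histone and to histone H3, so the RNAPII antibodies rest on the sample labels.

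Each RPM value was a whole multiple of 1 read (100.0% of values, tolerance 0.01 reads), which gave back the whole reads and library totals. With 3 reads as a floor, detection reached 0.0481 to 0.175 RPM, for counting error only. Symbols were assigned by span to RefSeq genes of GRCh38.p14 for 10729 genes (86.4%), and the 14 mitochondrial genes were left out.

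Tests used limma 3.58.1 (trend, two-sided, R 4.3.3) on log2(RPM + 0.5), a scale that understates changes of low genes, over all nuclear genes that averaged 1 RPM or more in the fit's libraries, with Benjamini-Hochberg adjustment at 0.05. ATRi was tested over 16, 19 and 22 h with hour as a block, hours with treatment as a term, and Ser2 against total RNAPII with the pair as a block. Alternatives were pseudocounts of 0.1 and 1, no filter, median centring, quantile normalization, fits without the block or the treatment term, each hour left out, and edgeR 4.0.16 and DESeq2 1.42.0 on the recovered reads. For Ser2 at 19 h against 16 h, edgeR on recovered reads called 4018 genes higher and 3818 lower. The fits were also run on simulated counts that held no shift of whole libraries between hours. That run cannot show how the fits treat the shifts seen here. The genes and lists were chosen with earlier results of these data known. The genes named are the 9 members, the 4 factors NPAT, CASP8AP2, SLBP and POU2F1, the listed neighbours and the 5 genes of most similar course. Intervals of single libraries are exact at 95%.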

Additional observations from a re-analysis of the deposited data

Results flagged for a closer look

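The ATRi to DMSO difference in total RNAPII had the opposite sign at 19 h from that at 16 h and 22 h over all 9 genes, and this difference between hours was not tested, since each hour holds 1 library per treatment. The log2 ratios at 19 h were -0.28 for H2AC4, -0.11 for H2BC4, -0.12 for H2BC5, -0.26 for H2AC8, -0.28 for H2AC12, -0.27 for H2AC15, -0.25 for H2AC16, -0.30 for H2AC20 and -0.28 for H2AC21. In Ser2 H2AC20 had 0.50 at 16 h and -0.24 at 22 h, each with a counting interval clear of 0, and -0.085 at 19 h, with an interval that included 0. H2AC4 (-0.096) and H2AC16 (-0.096) were also below 0 in Ser2 at 19 h and above 0 at 16 h and 22 h, with intervals at all 3 hours that included 0.

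The course over hours in total RNAPII also differed in sign between treatments, and this too was not tested. Between 22 h and 16 h the ATRi ratio was positive and the DMSO ratio negative for 8 of the 9 genes, all but H2AC21. Of all 12000 genes, 72.45% had a positive ratio with ATRi and 16.3% with DMSO, so most of the table moved in the same way. The counting intervals of both ratios were clear of 0 for 3 of these, whose DMSO log2 ratio was -0.49 for H2BC4, -0.26 for H2AC12 and -0.33 for H2AC15. For the other 5 the ATRi ratios were 0.10 (H2BC5) to 0.57 (H2AC4), and the DMSO ratios -0.32 (H2BC5) to -0.0070 (H2AC8). Between 22 h and 19 h the signs differed in the same way for 5 genes, where 11.0% of all genes had a positive ratio with ATRi and 9.65% with DMSO. Both intervals were clear of 0 for 3 of them, whose DMSO ratio was -0.84 for H2AC12, -0.33 for H2AC20 and -0.66 for H2AC21. The other 2 were H2AC8 (ATRi 0.11, DMSO -0.92) and H2AC16 (ATRi 0.040, DMSO -1.01). Between 19 h and 16 h H2AC20 had -0.34 with ATRi and 0.24 with DMSO.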

How the results depend on the processing

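Hours were left out for ATRi against DMSO, where 0 members were called with or without each hour, and for Ser2 against total RNAPII, where 9 were called lower without any 1 of the 4 hours. The members' median change with ATRi ranged from 0.0090 (without 22 h) to 0.52 (without 19 h) in total RNAPII and from 0.019 (without 16 h) to 0.21 (without 19 h) in Ser2. With a pseudocount of 0.1 H2AC15 was no longer called in total RNAPII at 19 h against 16 h (adjusted p = 0.0509, limma), and the pseudocount of 1 and no filter on low values changed no member's call. Scaling changed more. Total RNAPII at 19 h against 16 h was called higher over 4 genes on the deposited scale and over 0 with median centring, quantile normalization, edgeR, DESeq2 or no treatment term, while DESeq2 called 1 lower. The value of H2AC12 turned to -0.19 (centring), -0.20 (quantile), -0.22 (edgeR) and -0.24 (DESeq2), and that of H2AC21 to -0.074, -0.084, -0.10 and -0.13 in the same order of settings. Total RNAPII at 22 h against 19 h was called lower over 3 genes, and under these 4 settings over 0, with 1 called higher in each. The values turned positive for H2AC8 (0.15, 0.18, 0.18 and 0.21), H2AC12 (0.23, 0.27, 0.26 and 0.29), H2AC16 (0.079, 0.12, 0.12 and 0.14) and H2AC21 (0.41, 0.44, 0.44 and 0.47). Ser2 at 22 h against 19 h was called lower over 9 genes, and over 3 with DESeq2. Ser2 at 22 h against 16 h was called higher over 9 genes, over 5 with centring, 5 with quantile normalization, 4 with edgeR and 2 with DESeq2. Ser2 against total RNAPII was called lower over 9 genes, and over 0 without the block for the pair. The mean change of 6p22 minus that of 1q21 in total RNAPII at 22 h against 19 h was -0.57, and -0.49 with the H2A genes alone. The cause was not tested. The centring of the 14 h to 16 h ratios was chosen after seeing the data.

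The labels carry no replicate numbers, so the pairing of libraries is by hour, treatment and antibody alone. Depth limits single ratios: at 16 h the counting intervals of H2AC4, H2AC15 and H2AC16 included 0 in both antibodies. Reads shared with near-identical copies or with neighbours within a fragment's reach cannot be assigned to 1 gene.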
